A study of Bos taurus with 27 samples.

Results

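Cell junction and polarity genes were examined in bovine blastocysts as a set of 44 genes. They were chosen by their role in the cell and not by a measured difference, although earlier results of these data were known. The set held 7 adherens junction genes, EPCAM, 6 tight junction genes, 8 claudins, 9 desmosome genes, 3 gap junction genes and 10 polarity genes. All 44 were found by symbol among the 32637 genes of the count table, and all were matched to a RefSeq gene of ARS-UCD2.0. Of these, 40 reached 1 CPM (the reads of a gene per 1000000 reads counted in the pool) in at least 12 of the 27 pools, as did 12310 genes in all. PCDH1, DSC3, EVPL and GJB2 did not.

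The samples were 27 RNA pools, each of 2 expanding or expanded blastocysts graded 7 for stage and 1 for quality, produced in vitro from abattoir oocytes. The oocytes were matured with follicular fluid of preovulatory follicles of either greater or lesser maturity, fertilised with semen of the same bull and cultured alike, and the blastocysts of a pool shared treatment and replicate. The sample labels give the tissue and the pool number of a sample but not its treatment, so pools were not placed in a maturity treatment or an IVF replicate, and all 27 were described as 1 group. Differences between pools below therefore include any effect of treatment, of replicate and of the 2 embryos that happened to share a tube, and these were not separated here.

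The trophectoderm, the outer layer of the blastocyst, is the first epithelium of the embryo and seals itself with tight junctions so that fluid pumped inward fills the blastocoel. E-cadherin at adherens junctions and the desmosomes hold neighbouring cells together, claudins set what passes between cells, connexins form channels from cell to cell, and the PAR, Crumbs and Scribble groups of proteins give the cell an apical and a basal side. The inner cell mass holds the epiblast, which forms the embryo proper, and the hypoblast, which is itself epithelial.

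The pools differed in depth, from 10517606 to 44253564 reads on genes (median 22293594), and 3 counts were equal to between 0.0678 and 0.285 CPM. The 9 trophectoderm transcription factors listed were all retained, as were 6 of 9 epiblast and 8 of 12 hypoblast markers, but SOX17, FOXA2, GATA4 and CUBN of the hypoblast list were not. Transcripts listed as markers of other cells were also present. Of the leukocyte list 9 of 10 genes were retained, with a sum between 17.4 and 101 CPM. Of the granulosa or cumulus list 4 of 10 were, with a sum between 41.2 and 541 CPM. In that list HSD3B1 alone ranged from 19.9 to 517 CPM, and no other gene exceeded 24.6 CPM, the highest value of FSHR. Of the oocyte list 6 of 10 genes were retained, with a sum between 22.7 and 115 CPM. Of the fibroblast list 4 of 6 were, with a sum between 11.2 and 134 CPM, highest in pool 12. Pools 9 and 31 stood apart from the rest, with a median Spearman correlation with other pools of 0.915 and 0.910 over retained genes where every other pool had at least 0.931. Pool 9 had the highest and pool 31 the lowest leukocyte sum, and values of members that these pools set are also given without them.

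Of the 44 genes, 12 had a median of 100 CPM or more, 17 a median between 10 and 100, 10 between 1 and 10 and 5 below 1. In all 27 pools, 33 genes reached 1 CPM. The kit copies transcripts from the 3′ end and counts were not divided by length, so CPM was compared between pools for 1 gene and not between genes.

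**Figure D1:**
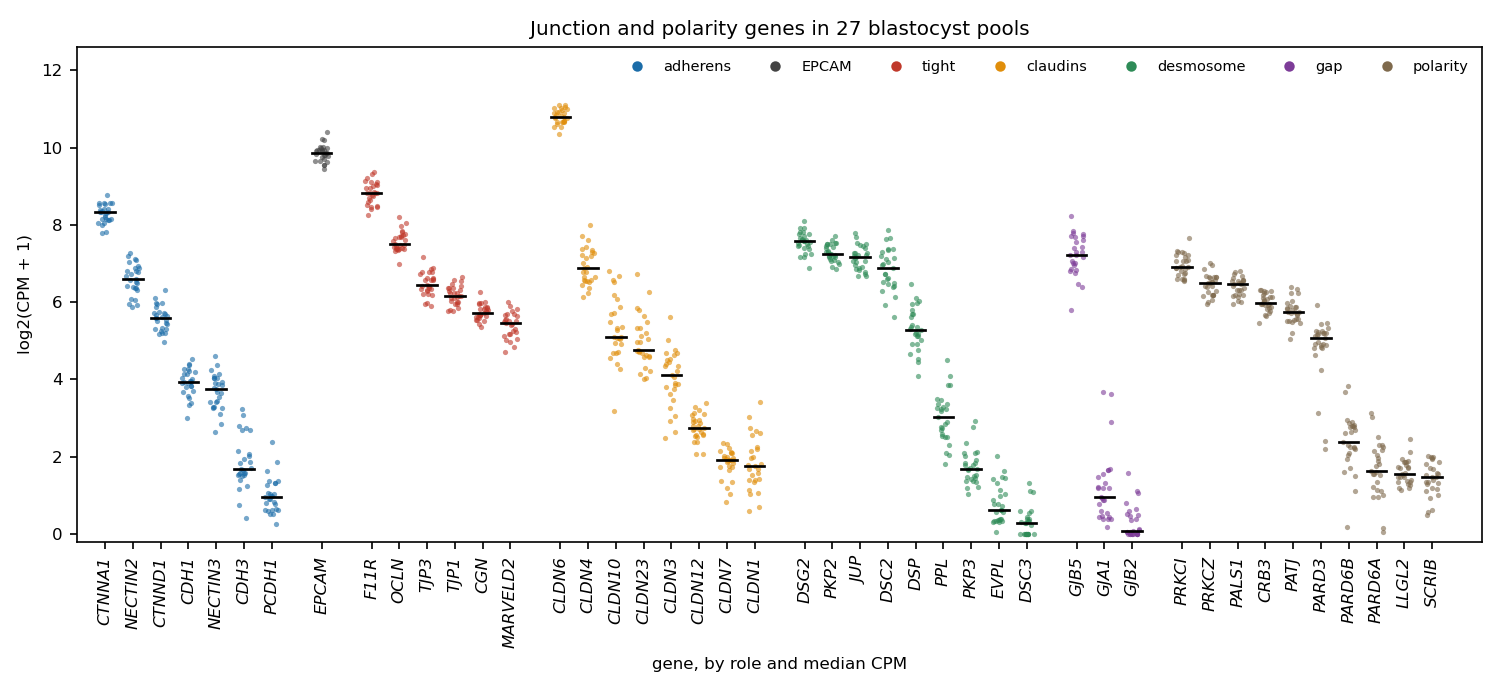
Each point is 1 of 27 blastocyst pools, as log2(CPM + 1) on the vertical axis, for each of the 44 genes on the horizontal axis grouped by role, and black bars are medians. CLDN6 and EPCAM lay in a narrow band in every pool, while PARD3 had 3 pools, PARD6A 2 and PARD6B 1 far below the rest and GJA1 had 3 far above.

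The adherens junction genes were present throughout. CDH1, which encodes E-cadherin, was at 6.96 CPM in pool 41, at a median of 14.3 and at 22.0 in pool 38. CTNNA1, the alpha-catenin that ties cadherins to actin, ranged from 221 to 438 CPM with a median of 319, a difference of only 1.98-fold between the extreme pools. CTNND1, the p120 catenin that holds cadherin at the membrane, ranged from 30.3 CPM in pool 15 to 78.3 in pool 35 with a median of 47.2. NECTIN2 and NECTIN3, immunoglobulin-like adhesion molecules, ranged from 58.1 to 153 CPM (median 95.1) and from 5.21 to 23.4 CPM (median 12.4). These genes were above 1 CPM in each pool. CDH3, the P-cadherin gene, was uneven, from 0.340 CPM in pool 14 to 8.36 in pool 25 with a median of 2.18. PCDH1, a protocadherin, had a median of 0.942 CPM and reached 1 CPM in 11 pools, with its highest value of 4.20 CPM in pool 31. EPCAM, an epithelial adhesion protein, lay between 700 and 1345 CPM with a median of 924, and its lowest value was again that of pool 31 and its highest that of pool 9, and without both it lay between 742 and 1182 CPM.

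All 6 tight junction genes other than claudins were above 20 CPM in every pool. TJP1, the ZO-1 scaffold, was at 53.6 CPM in pool 24, at a median of 70.8 and at 100.3 in pool 14. TJP3, the ZO-3 scaffold, ranged from 59.2 to 142 CPM (median 85.4), also with its highest value in pool 14. OCLN, which encodes occludin, ranged from 126 CPM in pool 41 to 295 in pool 21 (median 180). The related MARVELD2, tricellulin, sits where 3 cells meet, and was between 25.0 and 63.4 CPM (median 42.9), with its lowest value in the same pool as OCLN. F11R, junctional adhesion molecule A, was at 306 CPM in pool 31, at a median of 451 and at 660 in pool 12. CGN, the cingulin adaptor, was among the steadiest members, between 40.2 and 75.4 CPM (median 51.7).

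The claudins differed greatly in how evenly they were spread. CLDN6 was at 1308 CPM in pool 41, at a median of 1779 and at 2195 in pool 14, so no pool was more than 1.68 times another. CLDN4 ranged from 69.5 CPM in pool 1 to 253 in pool 31 (median 118), and CLDN3 from 4.64 CPM in pool 21 to 47.9 in pool 31 (median 16.3). Pool 31 was thus the highest of all pools for both, and without pools 9 and 31 the highest values were 207 and 31.3 CPM. CLDN10 ranged from 8.15 CPM, in that same pool 31, to 110 in pool 32 (median 33.4), and its next lowest value was 18.1 CPM. Its upper values were not those of a single pool, since pools 13, 12 and 15 had 101, 93.9 and 90.4 CPM. CLDN23 was at 15.1 CPM in pool 32, at a median of 26.1 and at 104 in pool 9, the next highest value being 76.2 CPM. CLDN1, CLDN7 and CLDN12 had medians of 2.39, 2.78 and 5.73 CPM, and CLDN1 varied most among them, from 0.515 to 9.64 CPM, or to 7.23 CPM without pool 9.

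Of the desmosome genes, 7 were retained and all 7 reached 1 CPM in every pool. DSP, the plakin that anchors keratin to the desmosome, was at 16.1 CPM in pool 32, at a median of 37.8 and at 86.9 in pool 31, with 67.9 CPM in the next pool. DSC2, a desmosomal cadherin, followed a similar course from 47.7 CPM in pool 32 through a median of 116 to 233 in pool 33, with pool 31 next at 202. DSG2, the other desmosomal cadherin retained, varied less, from 116 CPM in pool 24 to 273 in pool 33 (median 189). JUP, plakoglobin, which serves adherens junctions as well, ranged from 101 to 221 CPM (median 143). PKP2, a plakophilin, ranged from 115 to 208 CPM (median 150). PKP3 and PPL, a second plakophilin and periplakin, were at medians of 2.21 and 7.23 CPM and were both highest in pool 31, at 6.58 and 21.9 CPM. EVPL, envoplakin, and DSC3 fell short of the filter with medians of 0.542 and 0.219 CPM. EVPL was also highest in pool 31, at 3.06 CPM.

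Of the 3 connexin genes, GJB5 alone reached 1 CPM in every pool. It was at 54.4 CPM in pool 9, at a median of 149 and at 301 in pool 38, and its next lowest value was 82.6 CPM. GJA1, the connexin 43 gene, had a median of 0.962 CPM and reached 1 CPM in 13 pools. It stood at 11.7, 11.3 and 6.51 CPM in pools 12, 14 and 23, and no other pool exceeded 2.19 CPM. GJB2 had no counts in 10 pools and at most 2.00 CPM, in pool 14.

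Polarity genes ranged from even to very uneven. PRKCI and PRKCZ, the atypical protein kinases C of the PAR complex, ranged from 92.9 to 201 CPM (median 120) and from 60.7 to 128 CPM (median 89.0). CRB3 (42.7 to 78.4 CPM, median 61.7), PALS1 (60.7 to 111 CPM, median 86.9) and PATJ (32.3 to 83.5 CPM, median 52.5), the Crumbs protein and its partners, each stayed within 2.58-fold. LLGL2 and SCRIB, of the basolateral group, ranged from 1.22 to 4.46 CPM (median 1.96) and from 0.413 to 3.04 CPM (median 1.80). The PAR scaffolds differed most between the extreme pools. PARD3 was at a median of 32.8 CPM and at 59.6 in pool 14, but at 3.58, 4.27 and 7.70 CPM in pools 9, 31 and 32, below every other pool, the next being 18.0 CPM. PARD6B was at 0.130 CPM in pool 31 against a median of 4.21, a next lowest value of 1.16 and a highest value of 13.2 in pool 33. PARD6A was at 0.0326 and 0.125 CPM in pools 31 and 5 against a median of 2.08 and a highest value of 7.71 in pool 14. In pool 31 these levels were 1 read of PARD6A and 4 reads of PARD6B, so how far below the other pools it lay is poorly resolved. The PARD6A value of pool 5 lay within the 0.0678 to 0.285 CPM that 3 counts were equal to, so it is poorly resolved too.

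The spread of each gene was set beside that of other genes of like abundance by the biological coefficient of variation (BCV) of edgeR, the variation between pools that remains after counting error, divided by its trend at that abundance. The median ratio was 0.860 for the 40 retained members and 0.850 for all 12310 retained genes, and 13 members (32.5%) lay above the trend against 28.5% of all genes. The median member was thus spread much like the median gene, but 9 members (22.5%, against 1232 of all 12310 genes) were at or above the 90th percentile, in order CLDN10 (BCV 52.5%, ratio 1.85), CLDN23 (47.2%, 1.58), PARD3 (47.7%, 1.56), DSC2 (36.7%, 1.52), CLDN3 (50.7%, 1.42), GJA1 (101%, 1.41), CLDN4 (32.4%, 1.36), GJB5 (31.3%, 1.33) and DSP (38.1%, 1.32). Thus 4 of the 8 claudins were among the most uneven genes for their abundance, with the desmosome genes DSP and DSC2. At the other end, LLGL2 (BCV 37.7%, ratio 0.530), CLDN7 (40.7%, 0.601), CLDN12 (31.4%, 0.603) and CGN (17.4%, 0.628) were at or below the 10th percentile. Without pools 9 and 31, 5 members (12.5%) were at or above the 90th percentile, all of them among the 9, namely CLDN10 (BCV 48.4%), GJA1 (104%), DSC2 (34.0%), CLDN23 (40.4%) and CLDN3 (45.9%). DSP, CLDN4 and GJB5 then had ratios of 1.28, 1.27 and 1.26, and PARD3 one of 1.09. These ratios are descriptions with no test.

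**Figure D2:**
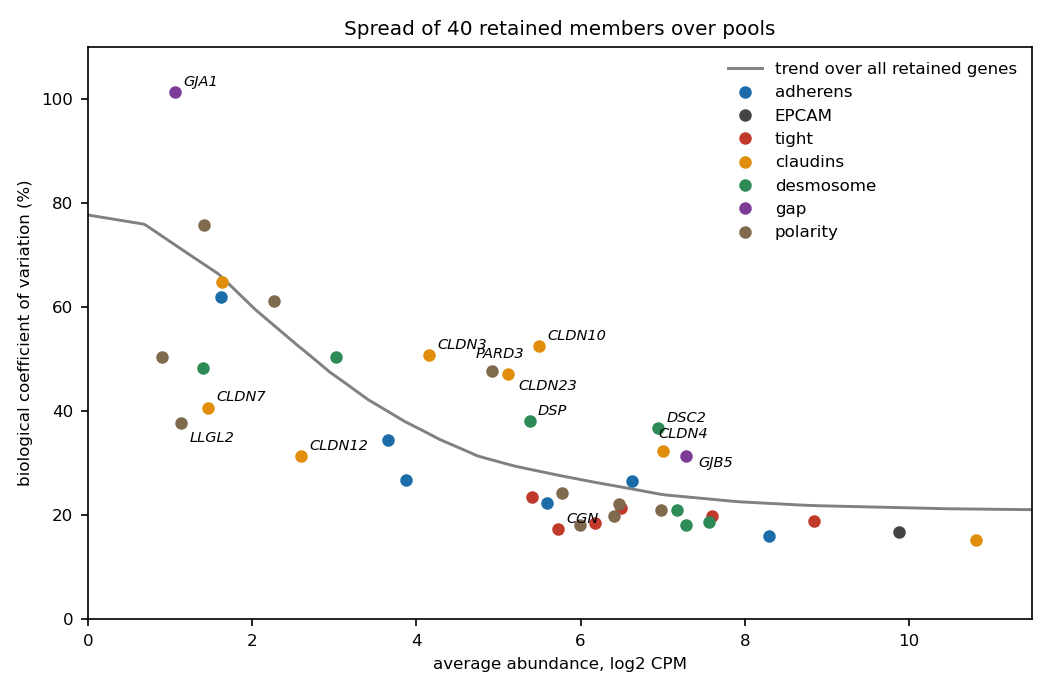
BCV over pools (vertical axis, %) against average abundance (horizontal axis, log2 CPM) for the 40 retained members, coloured by role, with the edgeR trend over 12310 genes as a grey line. The 9 members at or above the 90th percentile of ratios and the 4 at or below the 10th are named, and CLDN10 at 52.5% and DSC2 at 36.7% lie well above the line.

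It was next asked whether genes whose proteins bind or work together varied together from pool to pool. For 24 pairs of known partners or relatives, the first gene was set against all other retained genes by Spearman correlation of log2(CPM + 1) over the 27 pools. Each p was from a two-sided permutation test of 100000 resamples, with Benjamini-Hochberg adjustment over the 12309 genes. Of the 22 pairs in which both genes were retained, 1 passed an adjusted p of 0.05. This was CLDN3 with CLDN4 (rho 0.738, permutation p = 4e-05, adjusted p = 0.00947), where 2.84% of all genes passed against CLDN3. Pearson's r was 0.749 (permutation p = 2e-05, adjusted p = 0.00397). CLDN3 and CLDN4 are neighbours on chromosome 25, from 33507968 to 33509182 and from 33477754 to 33479301 of ARS-UCD2.0. Without the 2 pools farthest from the CLDN3 median r was 0.647, and the adjusted p of rho was 0.0573.

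The other partners were not shown to move together, which does not show that they varied apart. CDH1 and JUP had a rho of 0.556 with an adjusted p of 0.560, since 0 genes passed against CDH1, and at an unadjusted permutation p of 0.05 or less 920 did. CDH1 with CTNND1 had a rho of 0.357 and with CTNNA1 0.289. DSP and JUP had a rho of 0.509 (adjusted p = 0.0834) and an r of 0.549 (adjusted p = 0.0393), so the call depended on the kind of correlation. The desmosomal cadherins DSC2 and DSG2 had a rho of -0.0305. For OCLN with MARVELD2, adjacent on chromosome 20, rho was 0.327. Among the other pairs were TJP1 with OCLN (-0.216), TJP1 with F11R (-0.118), TJP3 with CGN (0.168), EPCAM with CLDN7 (0.00794), CLDN6 with CLDN7 (0.00305) and NECTIN2 with NECTIN3 (0.188). Among the polarity pairs of this list rho was between -0.303, for PARD3 with PRKCI, and 0.291, for LLGL2 with SCRIB. Without pools 9 and 31, where PARD3 was lowest, its rho with PRKCI was -0.519 (adjusted p = 0.297 by permutation). PRKCZ with PATJ was not on the list and is given below. DSP had a rho of 0.393 with PKP3 (adjusted p = 0.216 by permutation) and of 0.229 with PKP2, and GJA1 had 0.0812 with GJB5. Of the 22 pairs, the remaining ones had an adjusted p over all pools of at least 0.496 by permutation, the value for OCLN with MARVELD2. Outside the partner pairs, CDH1 and CDH3 are adjacent on chromosome 18 and had a rho of 0.0769.

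Because the partner pairs covered few of the possible combinations, each of the 40 retained members was then set against all retained genes in the same way, an analysis added after the data had been seen. Over all 40 members, 0.916% of comparisons with any gene passed an adjusted p of 0.05, and 36 of 1560 comparisons with another member did, or 2.31%. The comparisons share genes and libraries, so the shares are descriptions. Of the 780 pairs, 15 passed from both genes of the pair and 6 from 1 gene only. Positive among those 6 were TJP1 with DSG2 (rho 0.758), PRKCZ with PATJ (0.705), TJP1 with DSP (0.612) and DSP with CRB3 (0.568). GJB5 with PALS1 (-0.620) and OCLN with CLDN4 (-0.610) were negative. DSP had the most called genes of any member, 711 (5.78%), of which 6 were members, followed by CLDN4 with 594 (4.83%) and 5 members. The percentages for the other members with any called gene were 3.18 for DSC2, 2.84 for CLDN3, 2.79 for SCRIB, 2.36 for F11R, 2.24 for GJB5, 2.10 for CRB3, 1.95 for CTNND1, 1.86 for CTNNA1, 1.75 for NECTIN3, 1.67 for EPCAM, 1.64 for TJP1, 0.951 for JUP, 0.463 for PRKCZ, 0.171 for CLDN23 and 0.0650 for OCLN. No gene passed against 23 of the 40 members, CDH1 among them.

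**Figure D3:**
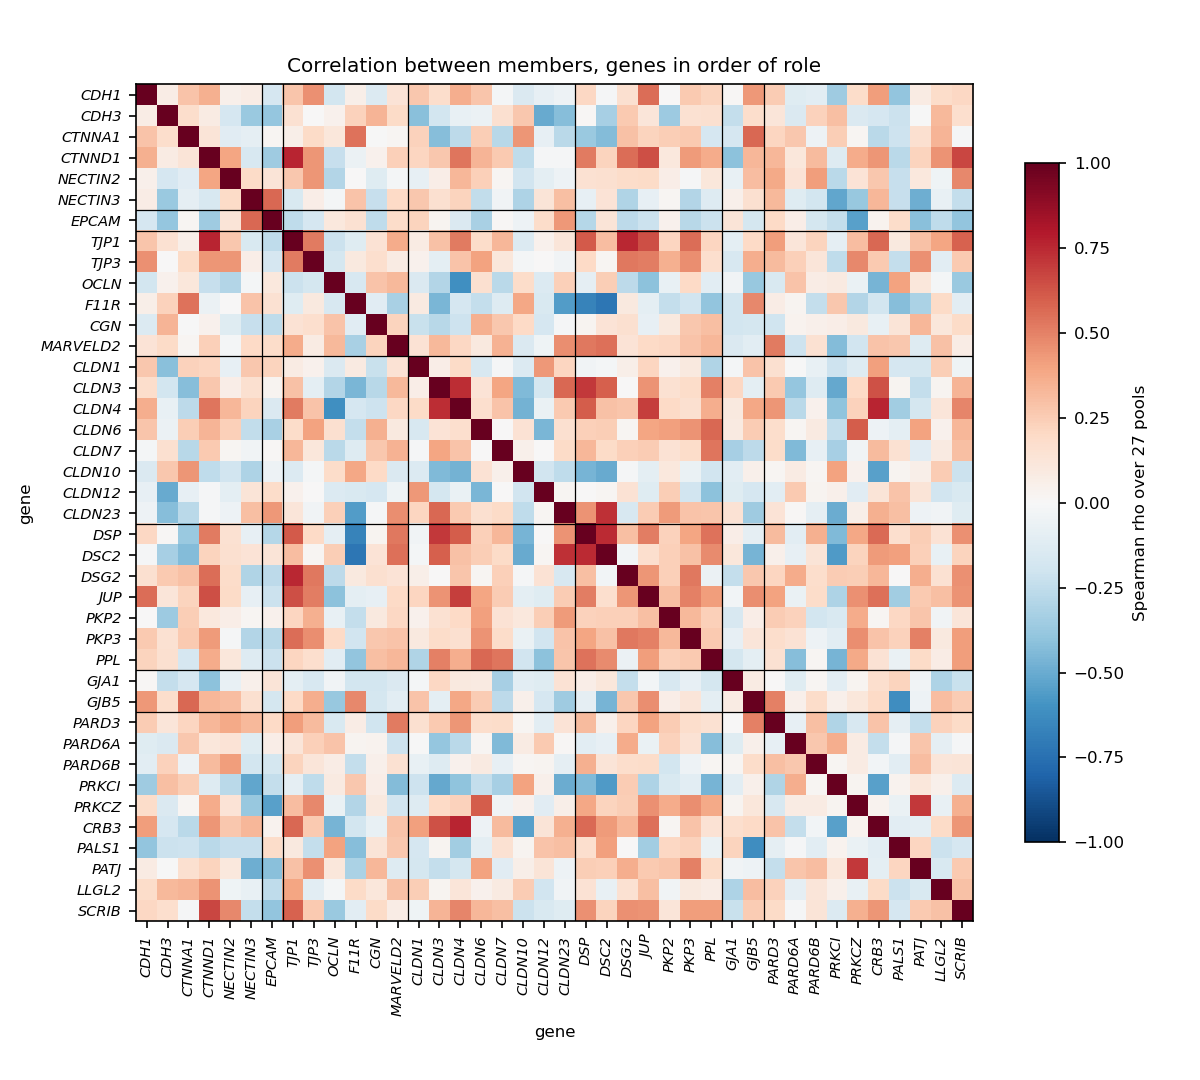
Spearman rho over 27 pools between the 40 retained members, on a colour scale from -1 (blue) to 1 (red), with genes in order of role on both axes and lines between roles. Red cells join CLDN3, CLDN4, DSP, DSC2 and CRB3, and TJP1 with CTNND1 and JUP, while F11R is blue against DSP and DSC2.

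Of the 15 pairs, 10 were among CLDN3, CLDN4, CLDN23, DSP, DSC2, CRB3 and F11R. CLDN4 rose and fell with CRB3 (rho 0.763, adjusted p = 0.0205 by permutation, r 0.752), the short Crumbs protein of the apical membrane. DSP did so with DSC2 (rho 0.742, adjusted p = 0.00821 by permutation, r 0.772), and CLDN3 with DSP (rho 0.708, adjusted p = 0.0149 by permutation, r 0.739). The remaining positive pairs of these genes were CLDN23 with DSC2 (rho 0.727), CLDN3 with CRB3 (rho 0.638), CLDN4 with DSP (rho 0.609) and CLDN3 with DSC2 (rho 0.594), each with an adjusted p between 0.0246 and 0.0472 by permutation. F11R went the other way, with a rho of -0.723 against DSC2 (adjusted p = 0.0107 by permutation, r -0.753) and -0.669 against DSP (adjusted p = 0.0251 by permutation, r -0.680). Pools 31 and 33 were high in DSP, DSC2 and CLDN4, and pool 32 was lowest in DSP and DSC2 and next to highest in F11R, at 633 CPM. DSP lies on chromosome 23 from 47824109 to 47868167 and DSC2 on chromosome 24 from 26027401 to 26065770, so unlike CLDN3 and CLDN4 they are not neighbours.

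A further 4 pairs joined CTNND1, TJP1, JUP and SCRIB. CTNND1 and TJP1 had a rho of 0.760 (adjusted p = 0.0123 by permutation, r 0.720), CTNND1 and SCRIB 0.670 (adjusted p = 0.0297 by permutation), CTNND1 and JUP 0.647 (adjusted p = 0.0488 by permutation) and TJP1 and JUP 0.646 (adjusted p = 0.0379 by permutation). With TMM scaling, TJP1 and JUP had a rho of 0.594 and did not pass (adjusted p = 0.0721 by permutation). Pool 15 was the lowest pool for CTNND1 and the next to lowest for TJP1, at 30.3 and 54.1 CPM. It also had the lowest TMM factor of all pools, 0.892, which CPM from column totals does not take into account. JUP was also correlated with CLDN4 (rho 0.693, adjusted p = 0.0239 by permutation), the pair that linked the 2 groups of genes. Without pools 9 and 31, 7 of the 15 pairs still passed, without pool 9 alone 11 and without pool 31 alone 10, and those lost without both were the 3 pairs with JUP, CTNND1 with SCRIB, CLDN3 with DSC2, CLDN3 with CRB3, CLDN4 with DSP and CLDN23 with DSC2. CLDN3 with CLDN4, CLDN4 with CRB3, DSP with DSC2, CLDN3 with DSP, CTNND1 with TJP1 and F11R with DSC2 passed by Pearson correlation, with TMM scaling and on leaving out pool 9, pool 31 or both, although CLDN3 with CLDN4 did not without the 2 pools farthest in CLDN3 (above), a setting not run for the other 5. For the last 5 of these, permutation p was between 2e-05 and 8e-05 for rho and between 1e-05, the smallest the permutations can give, and 3e-05 for r, with an adjusted p of r between 0.00342 and 0.0164. Without the 2 pools farthest from the median of the first gene, r was 0.703 for CLDN4 with CRB3, 0.678 for DSP with DSC2, 0.636 for CLDN3 with DSP, 0.707 for CTNND1 with TJP1 and -0.684 for F11R with DSC2. In pool 31 the leukocyte sum was the lowest of all pools at 17.4 CPM and in pool 9 the highest at 101 CPM. The source of the leukocyte transcripts and its part in the correlations were not tested.

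**Figure D4:**
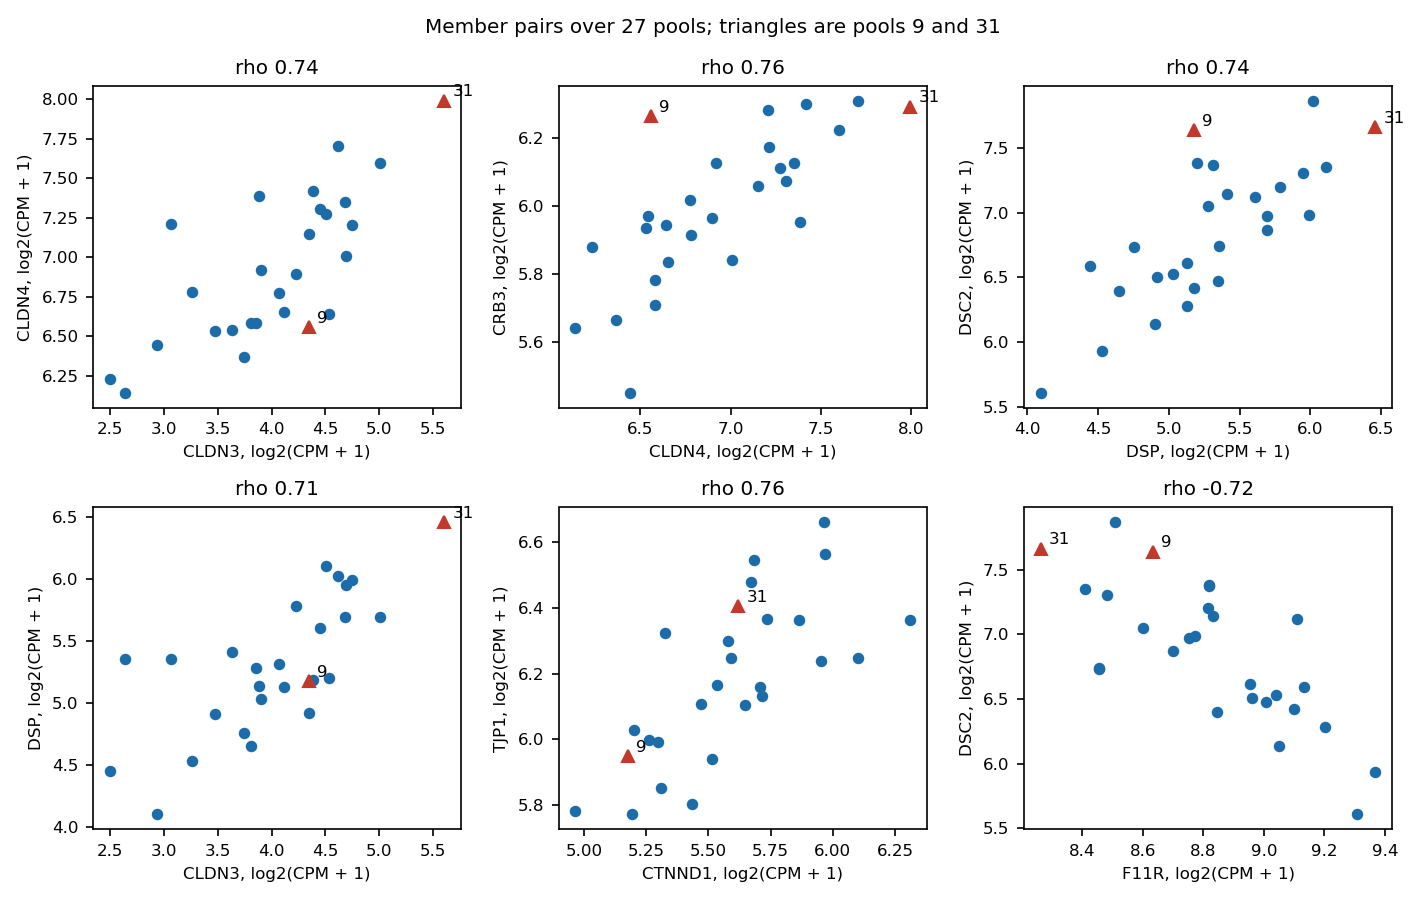
Each panel plots 2 members against each other as log2(CPM + 1) in the 27 pools, with pools 9 and 31 as red triangles and Spearman rho above. The 6 pairs are those that passed by Spearman and Pearson correlation, with TMM scaling and without pool 9, pool 31 or both, and the relation is seen among the blue points as well as with pools 9 and 31.

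Finally, the members were set against the makeup of the embryos, as far as lineage markers show it. Scores were the mean log2(CPM + 1) of the retained trophectoderm, epiblast or hypoblast markers, none of them a member, and edgeR's quasi-likelihood test gave the slope of each gene on each score, in log2 units per unit of score. In bulk RNA, fewer cells of a lineage and less marker RNA per cell cannot be told apart. The scores ran from 3.76 to 4.94, from 3.16 to 4.85 and from 5.13 to 6.83. At an adjusted p of 0.05, 0 of 40 members were called with the trophectoderm score, where 0.609% of all genes were, 0 with the epiblast score (0.00812% of all genes) and 0 with the hypoblast score (0.301%). At an unadjusted p under 0.05 the counts were 13 (32.5%), 3 (7.5%) and 13 (32.5%) members, beside 16.9%, 7.15% and 16.2% of all genes. DESeq2 called 2, 0 and 1 members, beside 3.03%, 0.333% and 2.88% of all genes, and gave 8 members no adjusted p for the hypoblast score and 1 for the epiblast score. At an unadjusted p under 0.05 it gave 15, 4 and 13 members, beside 18.5%, 8.03% and 17.3% of all genes.

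With the trophectoderm score, 11 of those 13 members had a positive and 2 a negative slope. The median slope of the 40 members was 0.26 against 0.00370 for all genes. This depended on how the score was made. With the median of the markers as score, 7 members had an unadjusted p under 0.05 by edgeR, beside 1555 of 12310 genes. Of these members, 3 had positive and 4 negative slopes, and the median slope of the 40 was 0.0557 against 0.0147 for all genes. With all 3 scores in 1 model there were 8 members, 5 with positive and 3 with negative slopes. Positive slopes were the more numerous in the other settings tried with this score. CTNND1 (slope 0.80 ± 0.23 SE, adjusted p = 0.0832 by edgeR and 0.0425 by DESeq2) and NECTIN2 (slope 0.97 ± 0.29 SE, adjusted p = 0.0978 by edgeR and 0.0451 by DESeq2) were the members that DESeq2 called. Correlations with a score were planned for members that edgeR called, of which there were none. Those given here and for the hypoblast score are for members picked from the fits to the same scores and pools. Their permutation p-values are unadjusted and are not separate evidence. Over pools, CTNND1 and the score had a rho of 0.597 (permutation p = 0.00105) and an r of 0.580 (permutation p = 0.00137), and r was 0.513 without the 2 farthest pools, 9 and 14. For NECTIN2 rho was 0.609 (permutation p = 0.00103), r 0.578 (permutation p = 0.00122) and r without those pools 0.576. TJP1, TJP3, JUP and SCRIB followed with slopes of 0.61, 0.73, 0.67 and 1.93, and adjusted p between 0.101 and 0.152 by edgeR. EPCAM (slope -0.46) and NECTIN3 (slope -0.81) were the members with negative slopes at an unadjusted p under 0.05 by edgeR, and without pools 9 and 31 these slopes were -0.19 and -0.30. CTNND1 and NECTIN2 then had slopes of 0.91 and 1.09.

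With the hypoblast score, 10 of the 13 members had a positive slope, and the median slope was 0.18 against -0.000722 for all genes. With all 3 scores in 1 model, 6 members had an unadjusted p under 0.05 by edgeR, beside 8.55% of all genes. Of these, 3 slopes were positive and 3 negative. In the other settings tried with the hypoblast score, positive slopes were the more numerous. PPL, a cytolinker like DSP, was the member that DESeq2 called (edgeR slope 1.20 ± 0.38 SE, adjusted p = 0.127 by edgeR and 0.0374 by DESeq2). PPL and the score had a rho of 0.619 (permutation p = 0.00075) and an r of 0.548 (permutation p = 0.00288), and r was 0.565 without the 2 farthest pools, 9 and 38. DSP had a like slope (0.80 ± 0.26 SE, adjusted p = 0.126 by edgeR), a rho of 0.642 (permutation p = 0.00036) and an r of 0.520 (permutation p = 0.00482), or 0.619 without those pools. CLDN3 and CLDN4 had slopes of 0.79 and 0.52, and CLDN1 and CLDN12 of -1.06 and -0.51. Without pools 9 and 31 the slope was 1.44 for CLDN3, -0.48 for CLDN1, 1.11 for DSP and 1.19 for PPL, and without the 2 farthest pools it was 1.88, -0.42, 1.37 and 1.65. With the epiblast score the smallest adjusted p of a member was 0.370, for PATJ (slope -0.44 ± 0.15 SE by edgeR), followed by CGN and DSG2, also with negative slopes. The total count of the pool was checked in the same way and called 0 of 40 members and 0% of all genes, and so did DESeq2. At an unadjusted p under 0.05 there was 1 member, GJA1, by edgeR, beside 2.76% of all genes, and the same gene by DESeq2, beside 3.15%. Pool 9 was lowest in the trophectoderm and hypoblast scores and highest in the leukocyte and granulosa or cumulus sums. By summed CPM it was also lowest in trophectoderm markers, at 307 CPM. For hypoblast markers, however, its sum of 2281 CPM ranked 6 from the highest. The source of the leukocyte and granulosa or cumulus transcripts and its part in the slopes were not tested. Without the 2 farthest pools, 6 members had an unadjusted p under 0.05 with the trophectoderm score and 7 with the hypoblast score, beside 9.89% and 10.3% of all genes. Without pools 9 and 31 these were 12 and 8 members, beside 12.5% and 9.77% of all genes.

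**Figure D5:**
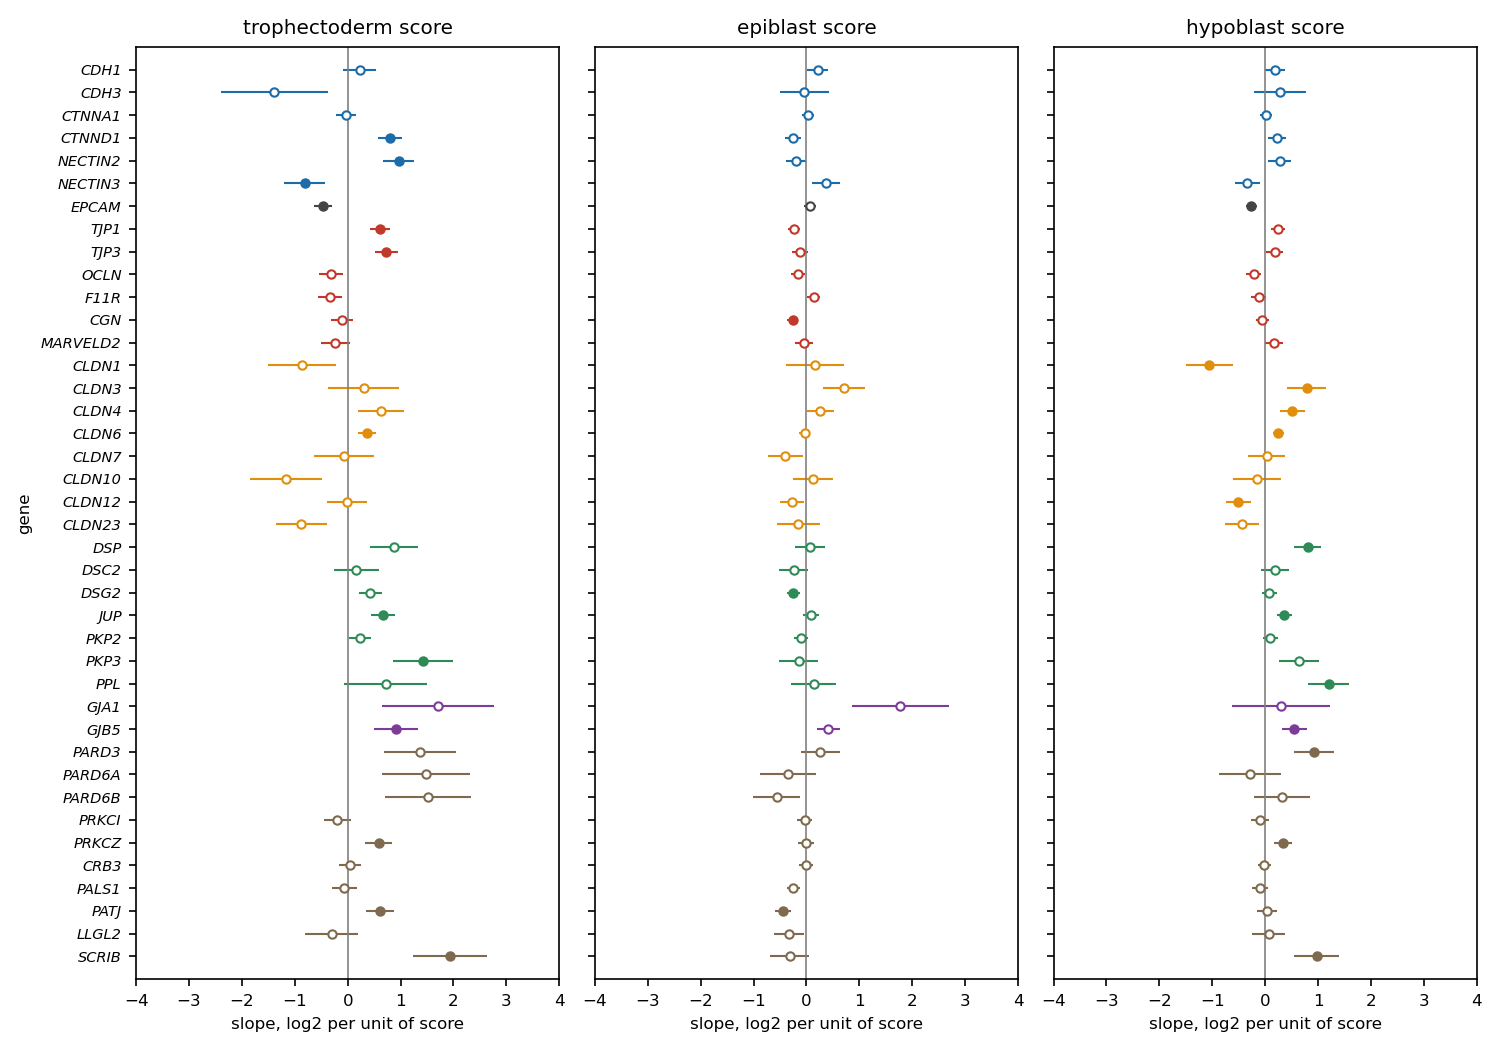
Slope of each of the 40 retained members on the 3 lineage scores (horizontal axis, log2 per unit of score, bars 1 SE from edgeR), with genes in rows by role. Filled points have an unadjusted p under 0.05, and none passed after adjustment, the smallest adjusted p being 0.0832 for CTNND1 on the trophectoderm score.

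A second list of 77 other genes of the same structures was described for context, and 46 of them were retained. With each of the 3 lineage scores and with the total count, 0 of the 46 were called by edgeR, and at an unadjusted p under 0.05 the counts were 7 (15.2%), 4 (8.70%), 8 (17.4%) and 0, beside the 16.9%, 7.15%, 16.2% and 2.76% of all genes given above. DESeq2 called 1 with the trophectoderm score, 0 with the epiblast score, 2 with the hypoblast score and 0 with the total count, where it called 3.03%, 0.333%, 2.88% and 0% of all genes. These were AFDN, the afadin that links nectins to actin (slope 1.60 on the trophectoderm score, adjusted p = 0.0396 by DESeq2), LLGL1, a partner of SCRIB (slope 0.62 on the hypoblast score, adjusted p = 0.0150 by DESeq2), and LIN7C, a partner of PALS1 (slope -0.60 on the hypoblast score, adjusted p = 0.0236 by DESeq2), named after their values were seen. EZR, which encodes ezrin of the apical membrane, was at a median of 3845 CPM and CTNNB1, beta-catenin, at 418 CPM.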

How the data were processed

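A SMART-Seq kit for 3′ ends was used to copy the RNA of each pool. The authors used fastp for trimming, STAR for mapping to the ARS-UCD2.0 assembly and featureCounts for counting, and deposited the raw counts. Versions and annotation release are not given in the sources used here, and counting by strand is not stated. Counts are reads, not molecules, so floors cover counting error only. All 27 columns were used, matched by pool number, and no pair of pools held the same counts within sampling noise (chi-square per degree of freedom at least 23.9). CPM used column totals, and genes with 1 CPM in 12 pools were retained. TMM factors were between 0.892 and 1.08. Slopes were tested with edgeR 4.0.16 quasi-likelihood (DESeq2 1.42.0 as alternative) in R 4.3.3, with Benjamini-Hochberg adjustment over all retained genes at 0.05. Correlations were tested by permutation in Python 3.11.15 with numpy 2.4.6. The p-values measure the spread between pools only, and pools of 1 IVF replicate may be alike. No batch was assigned, so no within-batch values were made. Scripts were tested on simulated data. There, of 100 genes each given a slope of 2 or of 1 in size, edgeR called 57 and 18 on the trophectoderm score. On the epiblast score it called 86 and 59, and on the hypoblast score 88 and 57. A member with a slope of 1 could thus often go uncalled, most of all on the trophectoderm score. Members, partner pairs and lists were chosen with earlier results of these data known. All members were accounted for, and the rule gave values for called members, the 10 highest and 5 lowest in median CPM, the 5 most and 3 least spread for their abundance, partner pairs and other junction genes called. Values of further members were added for completeness. The comparison of all members with all genes and the settings without pools 9 and 31 were chosen after seeing the data. No sequences were used here. Values of some genes outside the set are not reported here.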

Additional observations from a re-analysis of the deposited data

How the results depend on the processing

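The number of members called with a lineage score or the total count was 0 with RLE or total-count scaling, other filters on abundance, the total count or the other scores as covariates, a median score, a pseudocount of 0.1, without the 2 farthest pools and without pools 9 and 31. The exception was DESeq2, with 2 members for the trophectoderm score and 1 for the hypoblast score, and the cause was not tested. All-gene counts moved far more: edgeR called 75 genes with the trophectoderm score and 37 with the hypoblast score, but 1 and 0 without the 2 farthest pools, 1 and 1 without pools 9 and 31, 373 and 355 with DESeq2, 1 and 2 with all 3 scores in 1 model, 16 and 95 with the median score, 105 and 111 among genes at 1 CPM in every pool, and 498 and 794 with any count. The trophectoderm count was 5 with a pseudocount of 0.1, and the hypoblast count was 23 with the total count as covariate. Of genes called with the trophectoderm score, 35 had positive and 40 negative slopes, but 45 and 21 with total-count scaling. The epiblast count of 1 was 41 with DESeq2, 6 without pools 9 and 31, 2 with total-count scaling or the median score, 504 with any count and 0 without the 2 farthest pools, with all 3 scores or with a pseudocount of 0.1. The total-count comparison called 0 genes but 561 with any count. Of the other junction genes, edgeR called 0 with each score and with the total count, but 2 with the trophectoderm score, 1 with the epiblast score, 5 with the hypoblast score and 4 with the total count when genes with any count were kept, and 2 with the hypoblast score among genes at 1 CPM in every pool. For partner pairs, the 1 call became 2 by Pearson correlation, also 2 with a pseudocount of 0.1, and 0 without the 2 pools farthest in the first gene. The 15 member pairs were 22 by Pearson correlation, 16 with TMM and 7 without pools 9 and 31. The 16 with TMM held 14 of the 15, all but TJP1 with JUP. Members retained were 42 at 0.5 CPM, 38 at 2 CPM and 44 with any count. Median levels with TMM moved by less than 1 SD in 44 of 44 members. TMM factors between 0.892 and 1.08 left little room for a larger move, so this is no check of stability. Division by transcript length was not run, as transcript lengths were not used here. No paired analysis was possible because pools were not assigned to treatments or replicates. Depth limits PCDH1, DSC3, EVPL, GJB2 and GJA1, with medians below 1 CPM.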
